A study of Mus musculus with 4 samples.

Results

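Ribosome biogenesis and nucleolar genes were examined in granulocyte/monocyte progenitors (GMP) of Icsbp-deficient and wild type mice. The set held 47 genes named by symbol, and all probe sets that the platform annotation assigned to those symbols were taken on both Affymetrix array types, called 430A and MOE430_2. Of the 47 genes, 43 could be tested, among 7820 tested genes in all. Npm3 and Mrto4 had no probe set with that symbol alone, and Dkc1 and Nob1 had probe sets on MOE430_2 only.

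GMP are bone marrow cells, purified by flow cytometry, that give rise to granulocytes and to monocytes and macrophages. Icsbp, whose gene symbol is Irf8, regulates transcription in myeloid and lymphoid cells. The wild type group had 2 arrays, 1 of each type, each with RNA from marrow pooled from at least 10 mice. The Icsbp-deficient group likewise had 1 array of each type, from pools of at least 8 mice. All animals were 10 to 16 weeks old. The preparations are described as independent biological replicates, so each array type gives 1 ratio of Icsbp-deficient to wild type signal, n = 2 ratios in all. Within an array type, genotype cannot be told apart from differences between the 2 preparations or arrays. The wild type 430A array carries no genotype in its label, only a mixed background of C57/Bl6 and S129Ola, and was placed through the design text of the series. The strain of the other animals and the way Icsbp was disrupted were not given in the sources used here. A further Icsbp-deficient preparation named in the design text was not analysed here.

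Ribosomes are built in the nucleolus. RNA polymerase I transcribes the long precursor of the ribosomal RNAs, small nucleolar ribonucleoproteins (snoRNPs) modify it, and large groups of assembly factors cut and fold it while ribosomal proteins join the small and the large subunit. Cells that grow and divide fast, as myeloid progenitors do, make many ribosomes, and Myc is a well-known activator of genes of this kind through the E-box CACGTG.

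Deposited signals had 2% trimmed means of 500.2 (wild type) and 167.7 (Icsbp-deficient) on 430A, and of 82.08 and 80.62 on MOE430_2, so every array was rescaled before the comparison. Signals below are normalized signals, which can be compared between genotypes within an array type but not between array types or between genes. Where signals are ranked or summed over genes, this describes signal strength and not amounts of RNA. Ratios are log2 of Icsbp-deficient over wild type after an offset of 50, which understates the change of weak signals. The value after ± is limma's moderated standard error of the mean ratio. It rests more on the spread over probe sets of like signal than on a gene's own 2 ratios. The prior held 8.89 degrees of freedom against 1 residual. A gene is said to have risen or fallen where limma's adjusted p (Benjamini-Hochberg, two-sided, over 13576 probe sets) was under 0.05. With that rule 5.6% of all tested genes passed, 2.34% lower and 3.26% higher. Of the Irf8 probe sets, the stronger gave 3054 and 4887 in wild type and 2778 and 2732 in Icsbp-deficient cells, a ratio of -0.48 ± 0.16 (limma adjusted p = 0.124), and the weaker gave 0.06 ± 0.12 (adjusted p = 0.832). Neither passed the test, and whether these probe sets lie in the disrupted part of the gene is unknown here, which leaves the genotype unchecked by them.

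Promoters of the genes that fell are shown first, since these genes shared a direction and the E-box is the best known sequence of such promoters. Each line holds the 150 bases just before the annotated start, 5′ to 3′ in the direction of the gene, from RefSeq (GRCm38.p6), with the E-box CACGTG in capitals where it occurs. Nolc1 is at chr19:46075697-46075846 (plus strand), Nhp2 at chr11:51619623-51619772 (plus), Nip7 at chr8:107056727-107056876 (plus) and Gnl3 at chr14:31019132-31019281 (minus). Nop2 at chr6:125131733-125131882 (plus) and Imp4 at chr1:34439679-34439828 (plus) are shown because they hold the motif and their ratios lay on opposite sides of 0.
Nolc1: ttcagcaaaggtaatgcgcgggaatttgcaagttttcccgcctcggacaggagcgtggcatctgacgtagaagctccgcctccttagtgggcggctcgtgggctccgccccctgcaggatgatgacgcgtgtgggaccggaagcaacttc
Nhp2: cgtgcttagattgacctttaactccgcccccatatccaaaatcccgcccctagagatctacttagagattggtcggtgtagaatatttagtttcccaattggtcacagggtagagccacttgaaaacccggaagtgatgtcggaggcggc
Nip7: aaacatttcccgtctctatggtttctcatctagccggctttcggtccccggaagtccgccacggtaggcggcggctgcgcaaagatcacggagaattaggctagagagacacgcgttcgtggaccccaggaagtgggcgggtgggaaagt
Gnl3: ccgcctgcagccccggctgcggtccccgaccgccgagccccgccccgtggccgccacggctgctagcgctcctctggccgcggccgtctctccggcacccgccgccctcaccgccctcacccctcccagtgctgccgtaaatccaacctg
Nop2: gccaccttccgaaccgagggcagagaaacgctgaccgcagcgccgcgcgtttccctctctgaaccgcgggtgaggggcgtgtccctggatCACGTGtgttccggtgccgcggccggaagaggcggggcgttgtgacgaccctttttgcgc
Imp4: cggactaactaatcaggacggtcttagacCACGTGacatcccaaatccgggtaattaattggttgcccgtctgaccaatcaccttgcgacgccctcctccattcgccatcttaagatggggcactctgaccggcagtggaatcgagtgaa
The first 4 windows hold no E-box. Nop2 carries it 60 bases before the start and Imp4 121 bases before it.

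The letters CACGTG read the same on both strands, so one search covers both. From 250 bases before to 50 bases after the start, 7 of the 43 genes of the set with a promoter entry held the motif, which is 16.3%. Of the 39 tested genes of the set with an entry 17.9% held it, against 12.4% of 6454 tested genes and 8.09% of all 27025 genes in the table. The 7 genes were Imp4, Nop2, Pes1, Pno1, Tsr1, Utp20 and Wdr43. None of the 4 genes that fell was among them. A match is only a description of these letters in this window.

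The 43 tested genes lay below 0 as a group on both array types. The mean ratio was below 0 in 41 of them and above 0 in Utp3 and Imp4. Both array types gave a ratio below 0 for 35 of 43 genes (81.4%), against 34.4% of all tested genes. The median mean ratio was -0.30, that is 1.23-fold lower signal in Icsbp-deficient GMP, against -0.01 over all genes, and it was -0.31 on 430A and -0.31 on MOE430_2. The middle of the set, from its lower to its upper quartile, ran from -0.42 to -0.17, against -0.18 to 0.17 for all genes. Thus 32 of the 43 genes (74.4%) lay at or under the lower quartile of all genes, where 25% of all genes lie by definition. The set and the lists below were chosen with earlier results of these data known. These shares and medians are therefore descriptions and no test of the set.

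Ratios of single genes were small. The lowest ratio on either array type was -0.63, and no gene was 2-fold lower on both. Nolc1, Nhp2, Nip7 and Gnl3 fell, which is 9.3% of the 43 against 2.34% of all genes, and none rose, against 3.26%. At an unadjusted p under 0.05, 22 genes were lower, against 9.95% of all genes, and 0 were higher. The 4 calls depended on the fit: with array type left out as a block, with an offset of 16, with no filter on low signals, with no intensity trend or with the values not rescaled, 0 of the 43 genes passed. Scaling alone lost the call of Nhp2 (limma adjusted p = 0.0678), loess that of Nip7 (0.0519) and the mean over probe sets those of Nolc1 (0.0583) and Nip7 (0.233). With 1 residual degree of freedom the adjusted p-values may be too small. The median stayed between -0.31 and -0.27 under the other ways of scaling and normalizing the arrays.

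**Figure D1:**
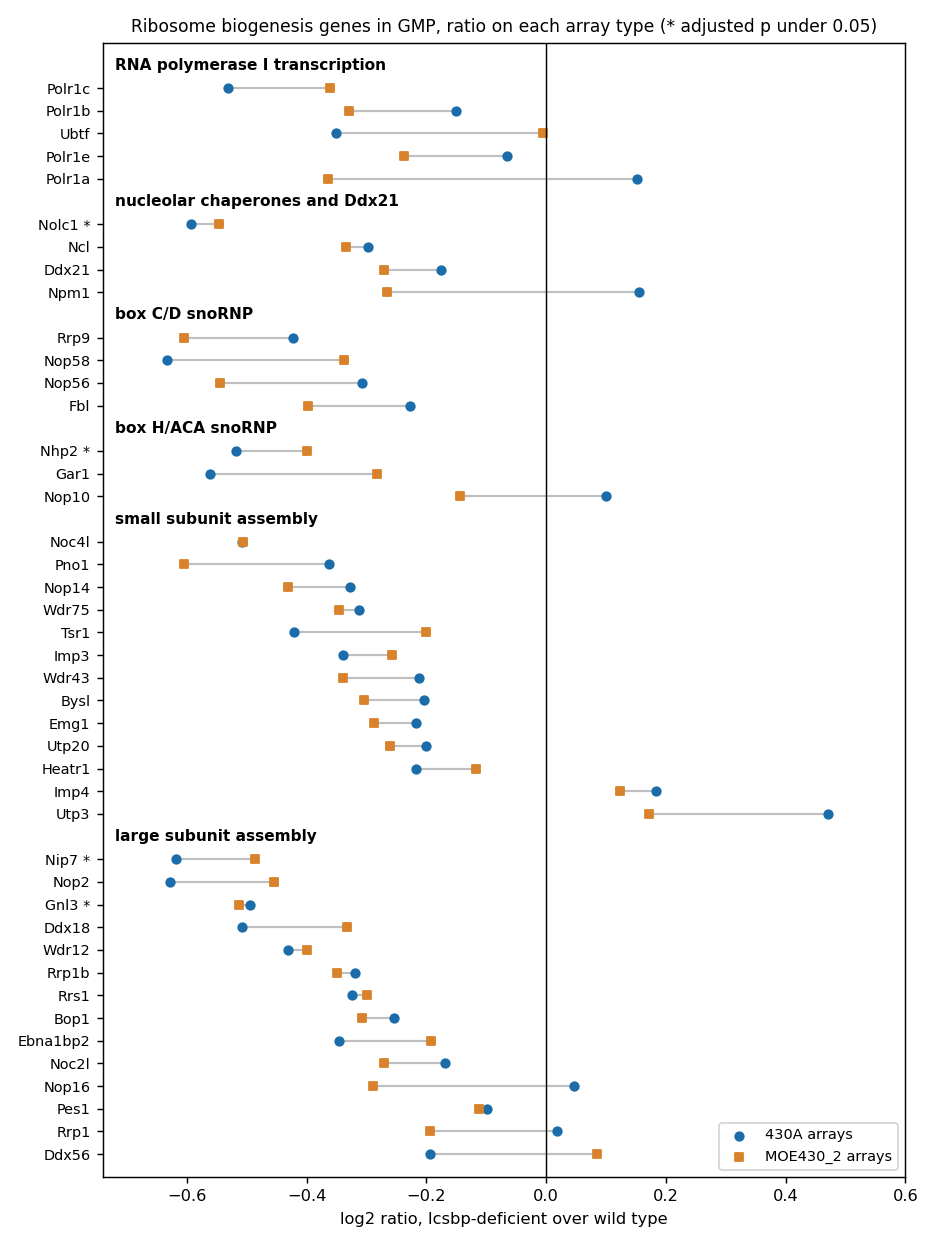
Log2 ratio of Icsbp-deficient over wild type GMP for each of the 43 tested genes, ordered by role, with 1 point per array type (1 array per genotype) joined by a grey line, and no error bars. Most points lie left of 0 on both array types, Utp3 and Imp4 lie right of 0 on both, and an asterisk marks the 4 genes with an adjusted p under 0.05.

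**Figure D2:**
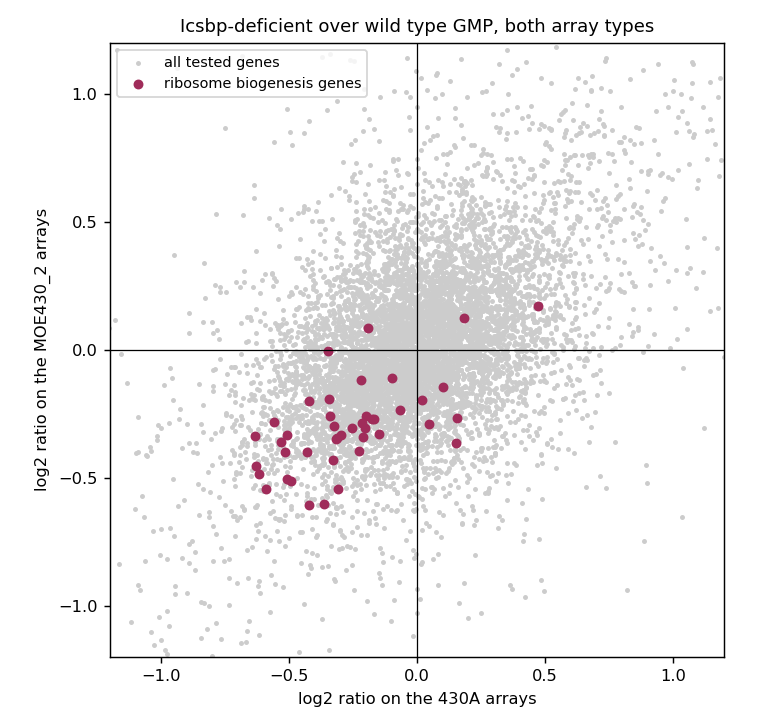
Ratio on 430A (horizontal) against ratio on MOE430_2 (vertical), both log2 of Icsbp-deficient over wild type, for the 43 genes of the set over all 7820 tested genes, of which 161 lie outside the plotted range of 1.2 to either side of 0. In the lower left part, where both ratios are below 0, lie 35 of the 43 genes.

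RNA polymerase I transcription was represented by 5 genes, the catalytic subunit Polr1a, the second large subunit Polr1b, Polr1c and Polr1e, and the rDNA transcription factor Ubtf. None passed the test, 1 had an unadjusted p under 0.05 and lay lower, and the median ratio was -0.18. Counts in this and the later roles stand beside 2.34% of all genes that fell and 3.26% that rose. At an unadjusted p under 0.05, 9.95% of all genes were lower. Each role held too few genes for its counts to be read as a share. Polr1c, a subunit that RNA polymerases I and III share, had normalized signals of 842.6 (430A) and 1018 (MOE430_2) in wild type and 567.4 and 781.8 in Icsbp-deficient cells. Both types thus gave a lower signal without Icsbp, a ratio of -0.45 ± 0.14 (limma adjusted p = 0.124). Polr1a had 707.0 and 484.0 in wild type and 790.8 and 364.8 in Icsbp-deficient cells. The Icsbp-deficient signal was the higher one on 430A and the lower one on MOE430_2, with ratios of 0.15 and -0.36 and a mean of -0.11 ± 0.17 (adjusted p = 0.792). Polr1b stood at -0.24, Polr1e at -0.15 and Ubtf at -0.18, and for Ubtf the 430A ratio of -0.35 carried the mean, since MOE430_2 gave -0.01.

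Of the nucleolar chaperones and the RNA helicase Ddx21, 4 were tested and 1 fell. Nolc1, which binds snoRNPs and RNA polymerase I in the nucleolus, gave the lowest mean ratio of the whole set. It had 1892 and 1503 in wild type and 1238 and 1014 in Icsbp-deficient cells on 430A and MOE430_2. Both Icsbp-deficient arrays were lower by nearly the same ratio, -0.59 and -0.55, a mean of -0.57 ± 0.13 or 1.48-fold (limma adjusted p = 0.0366). Its other probe sets stood at -0.53 and -0.39 (adjusted p = 0.117 and 0.21). Nucleolin (Ncl), a major nucleolar RNA-binding protein, gave 9208 and 12036 in wild type and 7479 and 9532 in Icsbp-deficient cells, a ratio of -0.32 ± 0.09 (adjusted p = 0.0724). Its other tested probe sets stood at -0.42, -0.40 and -0.65, so all 4 lay below 0 without passing the test. Nucleophosmin (Npm1), a chaperone that shuttles between nucleolus and cytoplasm, gave 7887 and 14040 in wild type and 8791 and 11665 in Icsbp-deficient cells. The genotypes were in opposite order on the array types, with ratios of 0.16 and -0.27. The mean of -0.06 ± 0.11 (adjusted p = 0.834) turned to 0.09 with scaling alone and to 0.01 with loess, and its other probe set stood at -0.21. Ddx21 stood at -0.22.

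The box C/D snoRNP proteins are parts of the particles of 2′-O-methylation of ribosomal RNA or bind the U3 snoRNA. They had the lowest median ratio of the 6 roles, -0.46. All 4 gave ratios below 0 on both array types with an unadjusted p under 0.05, and none passed the adjusted test. Rrp9, a U3 snoRNP protein, had 556.5 and 464.3 in wild type and 402.2 and 288.1 in Icsbp-deficient cells, a ratio of -0.51 ± 0.16 (limma adjusted p = 0.104). Fibrillarin (Fbl), the methyltransferase of these particles, had 5471 and 6892 in wild type and 4667 and 5222 in Icsbp-deficient cells, a ratio of -0.31 ± 0.10 (adjusted p = 0.128). Nop58 stood at -0.49 (adjusted p = 0.077) and its partner Nop56 at -0.43 (adjusted p = 0.0846). On every array pair the Icsbp-deficient signal of these core proteins was the lower one.

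The box H/ACA snoRNP proteins are parts of the particles that convert uridine to pseudouridine. Of the 3 tested, 1 fell. Nhp2 had 3654 and 6141 in wild type and 2536 and 4642 in Icsbp-deficient cells. The ratios were -0.52 and -0.40, with a mean of -0.46 ± 0.11 or 1.38-fold lower (limma adjusted p = 0.0387), and a second probe set stood at -0.44 (adjusted p = 0.0755). In fits without the block, which set arrays of different types against each other, the ratio was -0.03 without the Icsbp-deficient 430A array, -0.09 without the wild type MOE430_2 array, -0.83 without the wild type 430A array and -0.89 without the Icsbp-deficient MOE430_2 array, and the call was lost in each. Gar1 stood at -0.42 (adjusted p = 0.104). Nop10 had 5323 and 9595 in wild type and 5708 and 8678 in Icsbp-deficient cells. Its genotypes differed little and in opposite order on the array types, a mean of -0.02 ± 0.10 (adjusted p = 0.935) that was 0.09 with scaling alone and 0.03 with loess. Its second probe set stood at -0.34, from -0.01 on 430A and -0.68 on MOE430_2. The pseudouridine synthase Dkc1 was on MOE430_2 only, where its 3 probe sets gave 2537, 4329 and 3063 in wild type and 2421, 3666 and 2278 in Icsbp-deficient cells. These are ratios of -0.07, -0.24 and -0.42 from 1 array per genotype, normalized over all probe sets of that array type, with no test.

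**Figure D3:**
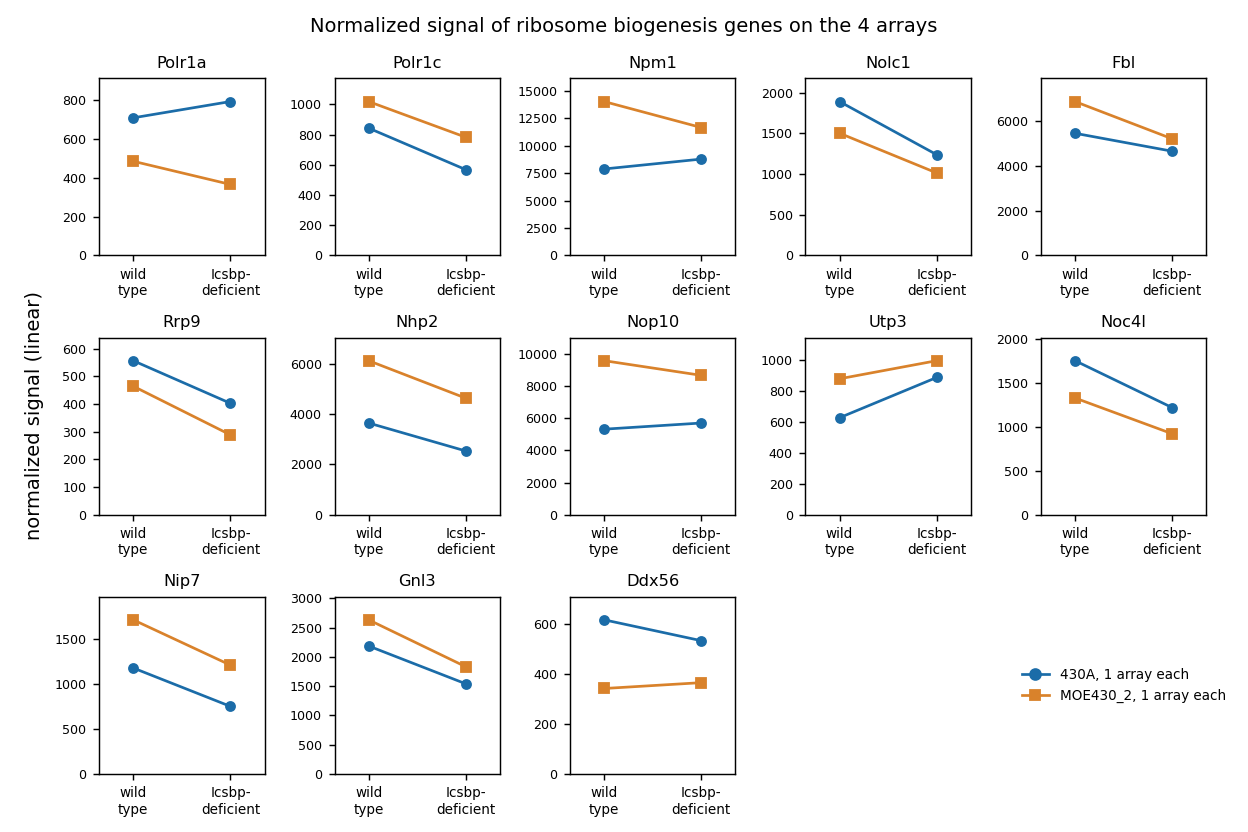
Normalized signal on the 4 arrays (vertical, linear from 0, own scale for each gene) by genotype (horizontal), with 1 point per array and a line joining the wild type and Icsbp-deficient arrays of one type. The lines of Nolc1, Nhp2, Nip7 and Gnl3 slope down on both array types, those of Utp3 slope up, and those of Polr1a, Npm1, Nop10 and Ddx56 slope in opposite directions on the array types.

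Among 13 tested factors of small subunit assembly none passed the test in either direction, while 6 had an unadjusted p under 0.05 and lay lower and 0 lay higher. Both array types were below 0 for 11 and above 0 for 2, and the median ratio was -0.28. Noc4l, a nucleolar factor of small subunit export, was the lowest of the role. It had 1758 and 1332 in wild type and 1221 and 922.6 in Icsbp-deficient cells, which gave -0.51 on both array types (mean -0.51 ± 0.13, limma adjusted p = 0.0591). Its 3 tested probe sets lay between -0.51 and -0.46. Pno1, an assembly factor of the late precursor, stood at -0.48 (adjusted p = 0.083), Nop14 at -0.38 and Wdr75 at -0.33. Tsr1, Imp3, Wdr43, Bysl, Emg1, Utp20 and Heatr1 lay between -0.31 and -0.17. Utp3 went the other way, with 625.4 and 877.0 in wild type and 886.0 and 994.1 in Icsbp-deficient cells. Its ratios were 0.47 and 0.17, a mean of 0.32 ± 0.15 (adjusted p = 0.286) that did not pass the test. Imp4, a protein of the U3 particle, had 1087 and 838.0 in wild type and 1240 and 917.6 in Icsbp-deficient cells, a ratio of 0.15 ± 0.14 (adjusted p = 0.619), while its partner Imp3 stood at -0.30.

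Large subunit assembly held 14 tested genes, of which 2 fell and 0 rose, against 2.34% and 3.26% of all genes. At an unadjusted p under 0.05, 7 were lower, against 9.95% of all genes, and 0 were higher. All 14 mean ratios were below 0, with both array types below 0 for 11, and the median was -0.30. Nip7, a factor of the pre-60S particle, had 1176 and 1712 in wild type and 748.7 and 1207 in Icsbp-deficient cells. Its ratios of -0.62 and -0.49 gave a mean of -0.55 ± 0.14 or 1.47-fold lower (limma adjusted p = 0.0472). Its second probe set, of weaker signal, stood at 0.00 (adjusted p = 0.999), so its probe sets disagreed and their mean was -0.28. In the fits with 1 array left out its ratio was -0.23 without the Icsbp-deficient 430A array, -0.29 without the wild type MOE430_2 array, -0.81 without the wild type 430A array and -0.88 without the Icsbp-deficient MOE430_2 array, and the call was lost in each. Gnl3, the nucleolar GTPase nucleostemin, had 2186 and 2634 in wild type and 1538 and 1830 in Icsbp-deficient cells. Its ratios of -0.49 and -0.51 gave a mean of -0.50 ± 0.12 or 1.42-fold lower (adjusted p = 0.045), from its single probe set.

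Nop2, a ribosomal RNA methyltransferase, had 1218 and 787.1 in wild type and 770.6 and 560.5 in Icsbp-deficient cells. Both types were lower, and the mean of -0.54 ± 0.14 (limma adjusted p = 0.0637) did not pass the test. The RNA helicase Ddx18 stood at -0.42 (adjusted p = 0.114). The subunits of the PeBoW complex, which acts in maturation of the large subunit RNAs, spread widely, with Wdr12 at -0.42 (adjusted p = 0.116), Bop1 at -0.28 and Pes1 at -0.11. Rrp1b, Rrs1, Ebna1bp2 and Noc2l lay between -0.33 and -0.22. Nop16 (-0.12), Rrp1 (-0.09) and Ddx56 (-0.05) had ratios of opposite sign on the array types. Ddx56, another RNA helicase, had 615.4 and 340.7 in wild type and 531.8 and 364.2 in Icsbp-deficient cells, a mean of -0.05 ± 0.16 (adjusted p = 0.895), and its order differed between the array types.

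Probe sets of one gene read the same RNA and are no replicates, but they show how far the direction rested on the choice of 1 probe set per gene, the one with the highest mean signal. Of the 76 probe sets on both array types 74 were tested. Both ratios were below 0 in 53 of the 74, 4 fell and none rose, against 2.14% of all tested probe sets that fell. The 31 tested probe sets not chosen had a mean ratio below 0 in 26 cases, and none passed the test. The shares of all tested probe sets with ratios below 0 were not computed. Among 25 genes with several tested probe sets, all lay below 0 in 20. Nip7 counts among these only by a second probe set at -0.0004. Imp4 had both above 0, and Ebna1bp2, Pes1, Rrp1b and Wdr12 had probe sets of both signs. Ebna1bp2 differed most, with -0.27 from its stronger probe set and 0.58 (limma adjusted p = 0.175) from its weaker one, an _x_at probe set whose wild type 430A signal was 113.1. The suffixes _s_at and _x_at mark probe sets that can also read related transcripts, and those of Fbl, Nop56, Gar1, Nhp2, Polr1c, Tsr1 and Polr1e used here carry one.

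A further 16 probe sets of 13 genes were on MOE430_2 only, with 1 array per genotype and so no test. They were rescaled and normalized over all probe sets of that array type, so their signals are not on the scale of the others. Of the 12 at or above the 40th percentile of mean signal on that array type, 11 had a ratio below 0, with a median of -0.33. The share below 0 over all its probe sets was not computed. Heatr1 gave the lowest, -0.996, from 529.3 in wild type to 240.5 in Icsbp-deficient cells, while its probe sets on both types stood at -0.17 and -0.27, the latter from 0.28 on 430A and -0.82 on MOE430_2. A further probe set of Noc4l gave 1071 and 596.5, a ratio of -0.79. Nob1, the endonuclease that makes the 3′ end of 18S ribosomal RNA, was the one above 0, with 1607 in wild type and 1862 in Icsbp-deficient cells (0.21).

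Genes of this set were mostly of strong signal, with 39 of 43 above the median signal of all tested genes. Their median ratio was -0.30 there and -0.27 for the 4 others. Over the 3910 genes above the median signal the median ratio was -0.02, both ratios were below 0 in 37.7%, and 2.07% fell.

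Other factors of ribosome biogenesis were also mostly below 0, with a median closer to 0. The list held 134 further genes, of which 106 were tested. Of these, 3 fell and 0 rose, against 2.34% lower and 3.26% higher over all tested genes, so the falls were near that share. At an unadjusted p under 0.05, 25 were lower, against 9.95% of all genes, and 1 was higher. Both ratios were below 0 in 67 (63.2%), against 34.4% of all genes, and the median ratio was -0.19. Ftsj3, a factor of ribosomal RNA processing, had 725.6 and 792.7 in wild type and 337.4 and 468.0 in Icsbp-deficient cells. It fell by 0.85 on the log2 scale (± 0.16, limma adjusted p = 0.0137), further than any of the 43 genes. Tbl3, of the small subunit processome, fell by 0.69 (± 0.15, adjusted p = 0.0277), and Bud23, the methyltransferase of 18S ribosomal RNA, fell by 0.62 (± 0.14, adjusted p = 0.0342). Of these other factors 1 passed with the values as deposited and 0 with no filter, no intensity trend, no block or 1 array left out.

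The ribosomal proteins themselves centred near 0. Of 78 listed, 43 were tested. Among them 1 rose and 0 fell, a share near the 3.26% higher and 2.34% lower over all tested genes. At an unadjusted p under 0.05, 2 were lower and 2 higher. Both ratios were below 0 in 13 (30.2%), against 34.4% of all genes. That count depended on the normalization and was 4 with scaling alone and 4 with loess. The median ratio was 0.02, which was 0.16 with scaling alone and 0.07 with loess. Of these 43 genes 35 were among the 100 strongest signals of all genes, against 2 of the ribosome biogenesis set, and the part of signal strength in this difference was not tested. Rpl22, a protein of the large subunit, had 8779 and 10482 in wild type and 10738 and 14373 in Icsbp-deficient cells and rose by 0.37 ± 0.09 (limma adjusted p = 0.0402). No ribosomal protein gene passed with the values as deposited, an offset of 16, no filter, no intensity trend, the mean over probe sets, no block or 1 array left out.

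**Figure D4:**
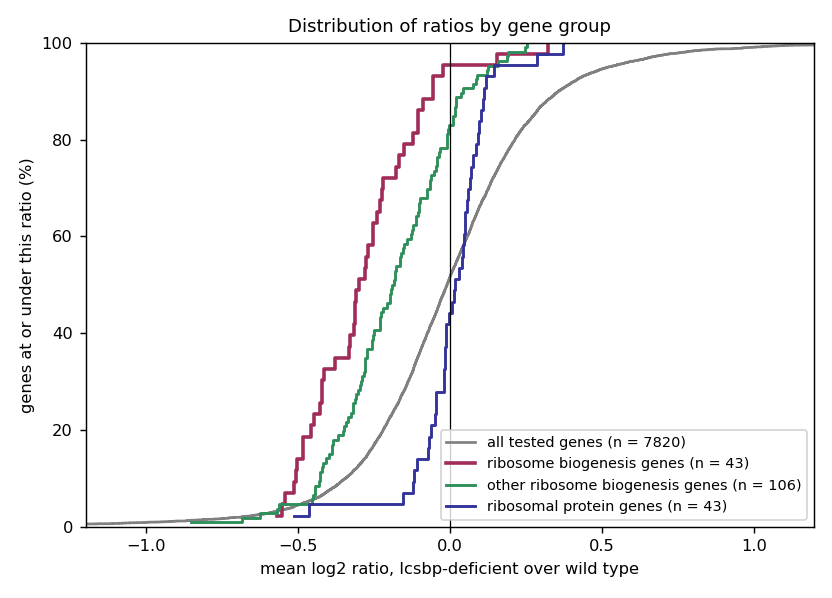
Cumulative percent of genes (vertical) at or under each mean log2 ratio of Icsbp-deficient over wild type (horizontal) for the 43 ribosome biogenesis genes, 106 other ribosome biogenesis factors, 43 ribosomal proteins and all 7820 tested genes. The curve of the set lies left of the others over most of the range, with its median at -0.30, against -0.19, 0.02 and -0.01.

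Myc had 3065 and 2525 in wild type and 3091 and 2420 in Icsbp-deficient cells. The genotypes lay close together on both array types, a ratio of -0.02 ± 0.12 (limma adjusted p = 0.941). Of 8 tested genes of the Myc network 1 rose and 0 fell, against 3.26% higher and 2.34% lower over all tested genes. At an unadjusted p under 0.05, 3 were higher and 0 lower, and 8 genes are too few for a share. The gene that rose was Mxd4, a Max partner that opposes Myc, named here after its value was seen. It had 266.6 and 296.7 in wild type and 481.8 and 509.3 in Icsbp-deficient cells (0.72 ± 0.16, adjusted p = 0.0296). Mlx (0.43) and Mxi1 (0.36) were the others higher at an unadjusted p under 0.05. The median of the list was 0.29, with both ratios above 0 in 6 genes and below 0 in 0. The part of Myc and its network in the lower signals of the set was not tested.

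Markers of proliferation and of cell types were measured beside the set. Of 18 tested proliferation genes, such as the replication clamp Pcna and the Mcm helicase genes, none passed the test (3 lower and 0 higher at an unadjusted p under 0.05). Their mean ratio was below 0 in 17, both array types were below 0 in 13 (72.2%), against 34.4% of all genes, and the median was -0.13. Summed signals over 10 GMP markers were 81830 and 126700 in wild type and 83280 and 134800 in Icsbp-deficient cells. These sums came mostly from Mpo, Elane, Prtn3, Ctsg and Ms4a3 and say little of the other markers. Mpo, Elane, Prtn3 and Ctsg, granule enzymes of these progenitors, lay between -0.02 and 0.05. Cd34, a surface protein commonly used to sort GMP, fell by 1.73 (adjusted p = 0.000134), and Fcgr3 and Csf2ra rose by 1.00 and 0.55.

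Marker counts in this and the previous paragraph stand beside 2.34% of all genes that fell and 3.26% that rose. Each cell type list held too few genes for a share. Of 7 tested neutrophil granule and maturation markers 6 rose, with a median ratio of 1.88. Their summed signal was 2321 and 1913 in wild type and 7429 and 11040 in Icsbp-deficient cells. All 6 tested basophil, mast cell and eosinophil markers fell, from sums of 4065 and 6122 to 1373 and 814.1, and 1 of 4 erythroid markers fell, from sums of 793.0 and 870.8 to 530.7 and 125.5. Of 7 monocyte and macrophage markers 2 rose and 1 fell, from sums of 6326 and 8278 to 6883 and 9311. The fall was Ly86, from 1515 and 1877 to 16.05 and 9.71 (ratio -4.79, limma adjusted p = 2.1e-06). The rises were Ccr2 (1.43) and Cd68 (1.03), and Csf1r, the strongest signal in the sums, stood at -0.01. Of 3 megakaryocyte markers 1 fell. Of 2 tested B cell markers none passed (0 lower and 1 higher at an unadjusted p under 0.05), and no T cell marker passed the filter on low signals. The part of these markers in the lower signals of the ribosome biogenesis genes was not tested. In such bulk RNA, fewer cells of a type and less RNA per cell cannot be told apart.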

How the data were processed

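Affymetrix 430A and MOE430_2 arrays measured RNA of GMP, 1 wild type and 1 Icsbp-deficient array per type. The authors deposited 1 linear intensity value for each probe set of an array. Per the labels' protocols, an ENZO kit was used for the Icsbp-deficient 430A array and a one-cycle kit for both MOE430_2 arrays. That of the wild type 430A array was not given in the sources used here. GCOS is named for MOE430_2 per the submitters' processing notes, with no settings.

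Arrays were rescaled so that the 2% trimmed mean over 22626 shared probe sets, controls left out, was 500. After adding 50 and taking log2, the 2 arrays of a type were quantile normalized. Probe sets under the 40th percentile of mean signal (9050) were left out. The other 13576 were fitted in limma 3.58.1 (R 4.3.3) with genotype and array type as terms and an intensity trend. This fit had 1 residual degree of freedom and a prior of 8.89. Probe sets on MOE430_2 only did not enter it and were rescaled and normalized over all probe sets of that array type, controls left out. Array number limits the precision. On data made with known changes the steps recovered sizes and signs, but the share of false calls often exceeded the threshold, so adjusted p-values may be too small. Array type is shared by the same-numbered arrays of both genotypes and was a block in the fit.

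In the platform annotation 20380 of the 22626 probe sets have 1 gene symbol, 691 have several and 1555 are unnamed here. RefSeq (GRCm38.p6) matched 20351. A gene is represented by its tested probe set of highest mean signal, and 45 genes of the set had a probe set of 1 symbol. The set and all lists were chosen with earlier results of these data known. Described in full were genes that passed the test, the highest and lowest of each role, those with ratios of opposite sign on the array types that differ by over 0.5, Irf8, Myc, and up to 3 called rises and falls of the largest ratio in the other biogenesis and ribosomal protein lists. Other genes with array values were named after their values were seen. Alternatives changed the block, the normalization, the offset, the filter, the trend and the choice of probe set, or left out an array.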

Additional observations from a re-analysis of the deposited data

How the results depend on the processing

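The direction of the set held under every alternative tried. Its median ratio was -0.29 with scaling only, -0.27 with loess, -0.28 with the values as deposited, -0.31 with MOE430_2 normalized over all its probe sets, -0.31 with an offset of 16, -0.31 with a floor in place of the offset, -0.28 with the mean over probe sets, -0.31 on 430A alone and -0.31 on MOE430_2 alone, and between -0.31 and -0.24 with 1 array left out. In those last fits the median of all genes ran from -0.08 to 0.07, and the set's median minus that of all genes from -0.39 to -0.17, against -0.29. Genes below 0 on both types numbered 34 with loess and 31 with the mean over probe sets. The calls did not hold. Without array type as a block (no pairing of the arrays by type), 1 gene passed in all, 0 of the set, 0 other biogenesis genes and 0 ribosomal proteins. With 1 array left out, in a fit without the block that assumes the lone array of a genotype to vary like the others, 27 to 36 genes passed and 0 of each list. Genes called in all were 258 with the values as deposited, 180 with no filter and 172 with no trend. Genes of the set called were 0 with the values as deposited, 0 with an offset of 16, 0 with no filter, 0 with no trend, 3 with loess (all among the 4), 4 with the mean over probe sets (2 of the 4 kept), 6 with scaling only (3 of the 4 kept) and 7 with the filter at the 60th percentile, and 6 with 1 probe set per gene before the fit, an alternative chosen after seeing the data. Other biogenesis genes called were 1, 0 and 0 (deposited, no filter, no trend) and 5 and 5 (60th percentile, 1 probe set per gene). Ribosomal proteins called were 0 with the values as deposited, an offset of 16, no filter, no trend or the mean over probe sets. With 1 array left out the called genes ran from -0.73 to -0.41 (Nolc1), -0.89 to -0.03 (Nhp2), -0.88 to -0.23 (Nip7) and -0.64 to -0.37 (Gnl3). Among the 13 genes described in full, ratios that turned above 0 were Npm1 (0.086 scaling only, 0.0108 loess, 0.16 on 430A alone), Nop10 (0.0863, 0.0292 and 0.10), Polr1a (0.15 on 430A alone) and Ddx56 (0.084 on MOE430_2 alone). Of the other genes Nop16 (0.05) and Rrp1 (0.02) were above 0 on 430A. With 1 array left out the ratios of these 4 genes ran from -0.47 to 0.36 (Npm1), -0.44 to 0.40 (Nop10), -0.62 to 0.40 (Polr1a) and -0.44 to 0.33 (Ddx56). None of these means had passed the test. Apart from fewer arrays or another number of probe sets tested, the cause was not tested. The number of arrays, 2 per genotype, limits the precision of every ratio.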
